A study of Homo sapiens with 74 samples.

Results

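RUNX1, FLI1, MYB, SPI1, IKZF1, ERG, ETV6, CEBPA, GFI1 and ETS1 encode 10 transcription factors of blood cell development. They were taken by gene symbol from the deposited gene count tables of K562 and HEL cells, and all 10 were listed in both tables among 28131 genes. K562 and HEL are established human leukaemia cell lines with erythroid and megakaryocytic features. K562 was sequenced as control cells (labelled wild type), as DOT1L-/- cells (DOT1L KO) and as ENL-/- cells (ENL KO), and HEL as control cells and as cells with DOT1L knockdown (KD). DOT1L is the methyltransferase that modifies H3K79, and ENL, whose gene symbol is MLLT1, reads acetylated histones and is found in complexes with DOT1L. The comparisons ask how the RNA levels of the 10 regulators differ when DOT1L or ENL is depleted. Distinct libraries numbered 2, 3 and 3 in these K562 groups and 2 and 2 in the HEL groups. Columns 2 and 3 of the K562 control were identical in all genes and entered as 1 library. The labels name no clone and do not say that replicates were separate cultures, so p-values measure only the spread between these libraries, which may be technical. K562 was grown in DMEM and counted as fragments, HEL was grown in RPMI-1640 and counted as reads, and the lines were depleted by knockout and by knockdown. A difference between the lines cannot be told apart from these differences. A lane is named in the labels of the K562 controls and of the DOT1L KO but not in those of the ENL KO, whose libraries may thus form a batch that cannot be told apart from loss of ENL.

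Total counts were 15404944 to 29236703 per K562 library and 12151495 to 12811688 per HEL library. A count of 0 leaves room for up to 3 counts, which were worth 0.101 to 0.195 CPM (library-scaled counts, with TMM factors within each cell line) in K562 and 0.238 to 0.244 CPM in HEL, for counting error only. Libraries of a group varied by a biological coefficient of variation of 6.34% in K562 and 1.83% in HEL. DOT1L had 176 to 186 CPM in the DOT1L KO and 256 to 270 CPM in the K562 control, and 29.1 to 30.0 CPM in the KD against 87.3 to 97.4 CPM in the HEL control. MLLT1 had 153 to 157 CPM in the ENL KO and 213 to 219 CPM in its control. Transcripts of each targeted gene were thus still counted after its depletion, and its libraries did not overlap with those of the control. The 10 erythroid markers examined (among them GATA1, KLF1 and the fetal globins) all had enough counts to be tested in both lines, with summed levels of 5123 to 5523 CPM in control K562 and 5156 to 5242 CPM in control HEL. Of 15 myeloid markers, 7 were at or under 3 counts in every K562 control library and 10 in every HEL control library, and of 10 lymphoid markers 5 and 6 were.

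The regulators act by binding DNA near the genes they control. RUNX1 binds together with CBFB and is needed for the first definitive blood stem cells and for megakaryocytes. FLI1, ERG, ETS1, ETV6 and SPI1 share the ETS DNA-binding domain: FLI1 and ERG serve stem cells and megakaryocytes, ETS1 is best known from lymphocytes, ETV6 is a repressor, and SPI1 (PU.1) drives the monocyte and granulocyte lineages. MYB maintains proliferating progenitors, IKZF1 (Ikaros) is a zinc finger factor of lymphoid development, CEBPA starts granulocyte development, and GFI1 represses genes through a co-repressor complex in granulocytes and stem cells.

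Promoter sequences are shown for 4 genes whose RNA levels carry the results below: RUNX1 went in opposite directions in the DOT1L-depleted K562 and HEL cells, MYB fell in all 3 depletions, and GFI1 and CEBPA had the largest decreases of the 10 in the ENL KO. Each window runs from 250 bases before to 50 bases after a start site in RefSeq (GRCh38.p14), is written 5′ to 3′ on the strand of the gene, and has its motif matches in capitals. No match of a motif overlapped a match of another in the windows shown. RUNX1 is the inner start on chr21:34888650-34888949, 160599 bases downstream of the outermost start, MYB is chr6:135181058-135181357 (plus strand), GFI1 is chr1:92486876-92487175 and CEBPA is chr19:33302485-33302784 (all but MYB on the minus strand).
RUNX1: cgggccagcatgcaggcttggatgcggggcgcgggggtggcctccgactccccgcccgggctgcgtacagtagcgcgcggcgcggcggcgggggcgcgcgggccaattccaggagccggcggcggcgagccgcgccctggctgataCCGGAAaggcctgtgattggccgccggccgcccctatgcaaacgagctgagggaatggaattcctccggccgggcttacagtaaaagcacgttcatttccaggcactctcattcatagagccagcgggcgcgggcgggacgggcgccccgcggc
MYB: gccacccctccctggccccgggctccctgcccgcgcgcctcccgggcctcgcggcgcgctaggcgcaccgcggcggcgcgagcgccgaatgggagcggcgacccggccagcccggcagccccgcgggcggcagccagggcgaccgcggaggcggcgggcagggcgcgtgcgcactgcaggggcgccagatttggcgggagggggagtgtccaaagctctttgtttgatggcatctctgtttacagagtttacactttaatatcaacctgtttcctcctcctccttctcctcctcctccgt
GFI1: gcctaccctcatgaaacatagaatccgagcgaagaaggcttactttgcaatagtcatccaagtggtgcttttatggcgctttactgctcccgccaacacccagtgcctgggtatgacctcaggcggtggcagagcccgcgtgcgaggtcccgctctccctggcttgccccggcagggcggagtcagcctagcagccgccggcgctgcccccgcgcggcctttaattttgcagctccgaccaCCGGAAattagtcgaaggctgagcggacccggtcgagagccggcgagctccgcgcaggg
CEBPA: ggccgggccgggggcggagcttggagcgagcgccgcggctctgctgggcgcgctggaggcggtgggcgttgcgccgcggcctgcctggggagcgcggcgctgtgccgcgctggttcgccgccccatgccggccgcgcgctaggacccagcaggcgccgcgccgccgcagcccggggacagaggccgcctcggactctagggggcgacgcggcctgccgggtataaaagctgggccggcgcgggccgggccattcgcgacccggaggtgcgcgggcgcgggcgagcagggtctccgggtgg
The RUNX1 window held 1 ETS motif at base 147 and the GFI1 window 1 ETS motif at base 242, counted from the first base of the window. The MYB and CEBPA windows held none of the 5 motifs searched. All motifs were searched on both strands, and their shares are over 35116 RefSeq promoter windows of the same length. CCGGAA was the ETS motif and was found in 17.2% of these windows. The RUNX motif searched was TGTGGT, which 13.1% of the windows held. For the GATA factors the letters were AGATAA, with a share of 10.3% of the windows. MYB was searched as CAACNG, a shorter string of fixed letters that 32.9% of the windows held. The GFI1 motif was AAATCA, present in 13.2% of the windows. These matches are a description of the letters and not of binding. GFI1 had 2 further windows in the table that are not shown, one with 1 RUNX motif at base 204 and the other with 1 ETS motif at base 10. IKZF1, ERG and ETV6 also had windows there that are not shown, and FLI1, SPI1 and ETS1 had none there.

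RUNX1 (chromosome 21, 34787801 to 35049298, minus strand, GRCh38) was higher after loss of DOT1L or ENL in K562 and slightly lower after DOT1L knockdown in HEL. It had 79.01 and 87.9 CPM in the K562 controls, 174, 180 and 186 CPM in the DOT1L KO, and 120, 138 and 126 CPM in the ENL KO. All 6 knockout libraries lay above both controls, and the DOT1L KO libraries lay above the ENL KO libraries. RUNX1 rose 2.16-fold in the DOT1L KO (log2 fold change 1.11, SE 0.072). The adjusted p was 2.77e-08 in the quasi-likelihood test of edgeR, with Benjamini-Hochberg adjustment over all tested genes. In the ENL KO it rose 1.53-fold (log2 fold change 0.62, SE 0.072, edgeR adjusted p 1.35e-05). The difference between the knockouts was 0.49 on the log2 scale (SE 0.062, edgeR adjusted p 1.18e-05). HEL started from a higher level, with 413 and 395 CPM in the controls against 340 and 344 CPM in the KD. The HEL groups did not overlap, and RUNX1 fell by 0.24 on the log2 scale (SE 0.032, edgeR adjusted p 6.56e-09). The change in HEL minus the change in K562 was -1.33 (SE 0.078, adjusted p 1.73e-11 for the interaction in a joint edgeR fit of both tables). Between the control cells, RUNX1 was 5.08-fold higher in HEL than in K562 (log2 fold change 2.35, SE 0.060, edgeR adjusted p 3.21e-19 in the joint fit).

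**Figure D1:**
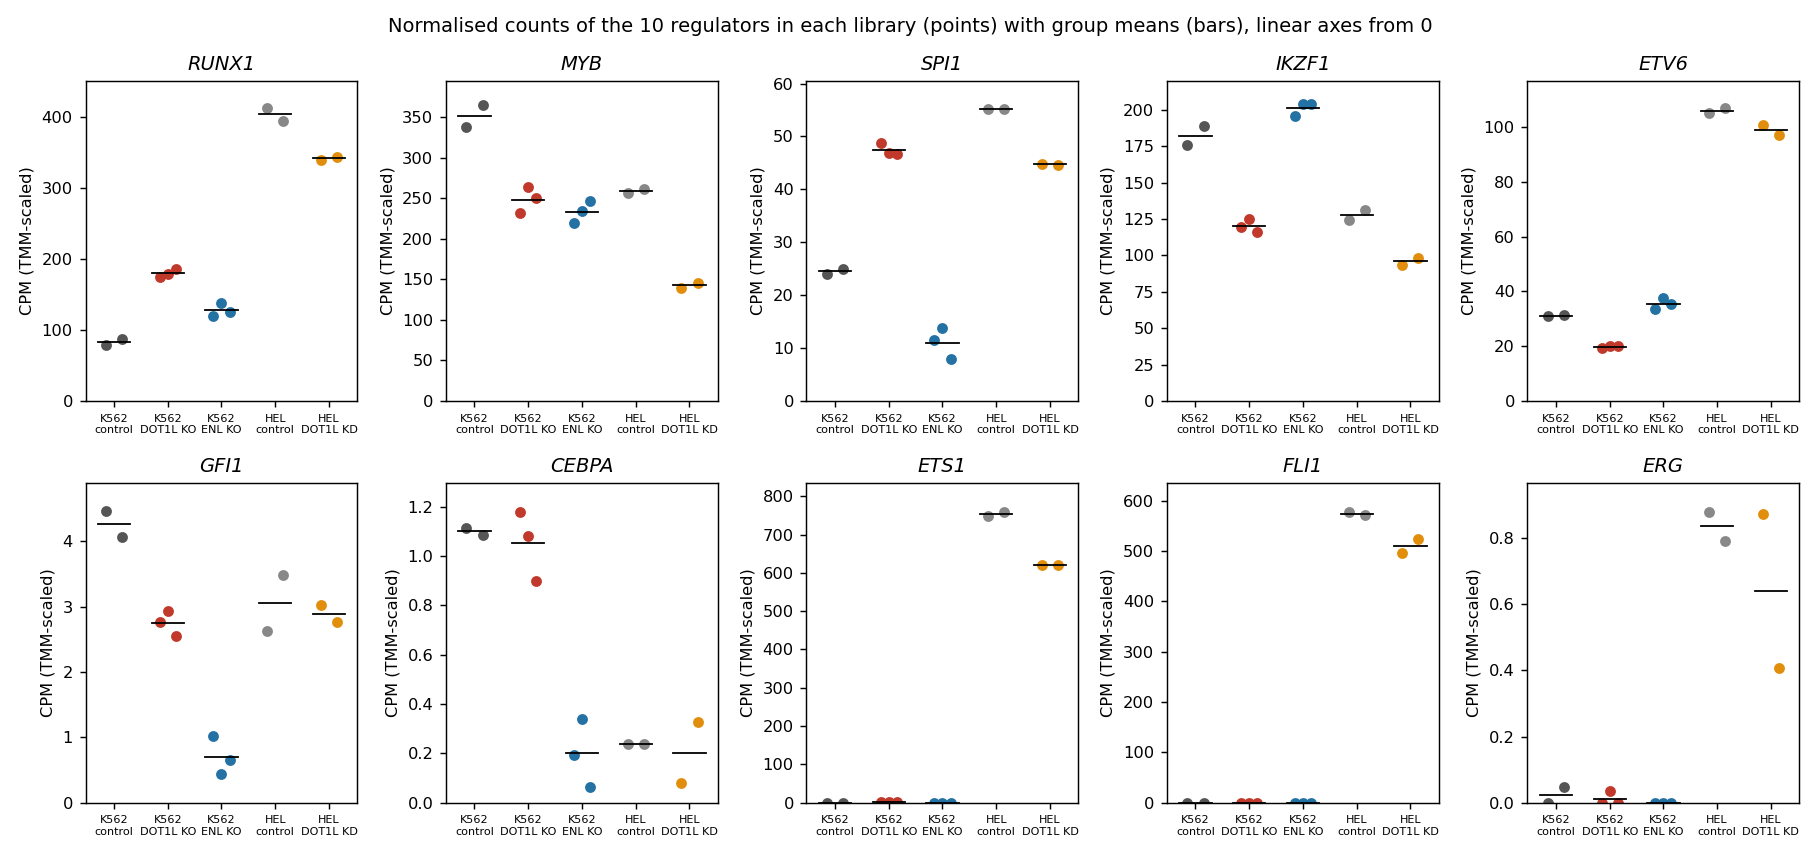
Normalised counts (CPM, linear axes from 0, TMM-scaled within each cell line) of each of the 10 regulators in every library (points) with the mean of each group (bars). RUNX1 lies at 174 to 186 CPM in the K562 DOT1L KO against 79.01 and 87.9 CPM in the control, SPI1 lies above the control in the DOT1L KO and below it in the ENL KO, and FLI1 is at 0 in all 8 K562 libraries.

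Genes that work with RUNX1 were described as a list of 11: CBFB, its relatives RUNX2 and RUNX3, the corepressors RUNX1T1, CBFA2T2 and CBFA2T3, and the erythroid and stem cell factors TAL1, GATA2, LMO2, LYL1 and LDB1. In the DOT1L KO, 4 of 10 tested rose, 4 fell and 2 were not past the threshold, with a median log2 fold change of 0.01. In the ENL KO the counts were 2, 5 and 3 (median -0.20), and in the HEL KD 5, 4 and 1 of 10 tested (median 0.14). Beside these and the list counts below, 51.1%, 41.0% and 55.0% of all tested genes were past the threshold in the 3 comparisons. RUNX3, a relative of RUNX1 best known from T cells, rose in the DOT1L KO from 1.35 and 1.51 CPM in the controls to between 8.08 and 8.85 CPM (log2 fold change 2.58, SE 0.23, edgeR adjusted p 7.48e-07). The ENL KO had 0 to 7 counts of RUNX3, which fell by 3.13 on the log2 scale (SE 0.48, edgeR adjusted p 1.45e-04). RUNX2, the regulator of bone formation, fell in both knockouts, from 5.42 ± 0.363 CPM (SD, n = 2) to 1.29 ± 0.300 CPM (SD, n = 3) on loss of DOT1L and to 1.82 ± 0.232 CPM (SD, n = 3) on loss of ENL. The edgeR adjusted p-values were 1.25e-06 and 2.47e-05. TAL1, a core factor of erythroid and stem cells, rose 1.84-fold in the DOT1L KO and 1.12-fold in the ENL KO (edgeR adjusted p 1.36e-08 and 0.0243). CBFB, the partner subunit that stabilises RUNX1 on DNA, fell 1.24-fold in the ENL KO and 1.32-fold in the HEL KD (edgeR adjusted p 0.00540 and 1.81e-08). GATA2, a stem and progenitor cell factor, fell 1.62-fold in the DOT1L KO, 1.59-fold in the ENL KO and 1.20-fold in the HEL KD (edgeR adjusted p 5.03e-06, 1.10e-05 and 4.05e-11). LYL1, a relative of TAL1, and RUNX1T1 rose in the HEL KD by 0.44 and 0.32 on the log2 scale (edgeR adjusted p 4.59e-12 and 1.32e-06). The list count in the ENL KO rested on the controls: 7 of 10 were past the threshold in all, and 4 without control 1 or without control 2.

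MYB (chromosome 6, 135181308 to 135219173, plus strand) fell in all 3 depletions. In K562 it had 338 and 365 CPM in the controls, 232, 264 and 250 CPM in the DOT1L KO and 219, 235 and 246 CPM in the ENL KO. Every knockout library was below both controls, and the knockouts overlapped with each other. The log2 fold change was -0.50 in the DOT1L KO (SE 0.067, edgeR adjusted p 3.28e-05) and -0.59 in the ENL KO (SE 0.067, edgeR adjusted p 1.08e-05). The knockouts differed by 0.09 on the log2 scale (2 SE interval -0.03 to 0.21, edgeR adjusted p 0.214), a difference not past the threshold, which does not show that they act alike. In HEL, MYB went from 257 and 262 CPM to 139 and 146 CPM, a 1.82-fold decrease and the largest of the 6 decreases of the regulators there (log2 fold change -0.87, SE 0.038, edgeR adjusted p 3.50e-26). The decrease was larger in HEL than in K562 by 0.35 on the log2 scale (interaction -0.35, SE 0.083, edgeR adjusted p 0.00190). MYB was 1.29-fold lower in control HEL than in control K562 (edgeR adjusted p 8.06e-06).

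Of the ETS factors, SPI1 (chromosome 11, 47354858 to 47378576, minus strand) moved in opposite directions in the K562 knockouts. It had 24.0 and 25.0 CPM in the controls, 48.7, 46.9 and 46.7 CPM in the DOT1L KO and 11.4, 13.7 and 7.94 CPM in the ENL KO. No library of any K562 group overlapped with another group. SPI1 rose 1.94-fold in the DOT1L KO (log2 fold change 0.95, SE 0.13, edgeR adjusted p 4.58e-05) and fell 2.19-fold in the ENL KO (log2 fold change -1.13, SE 0.14, edgeR adjusted p 3.12e-05). Compared directly, it was 4.24-fold higher in the DOT1L KO than in the ENL KO (edgeR adjusted p 8.24e-09). The HEL libraries had 55.2 and 55.1 CPM in the controls and 44.8 and 44.6 CPM in the KD, a decrease of 0.30 on the log2 scale (SE 0.062, edgeR adjusted p 4.22e-05). The change in HEL was 1.24 lower on the log2 scale than that in the DOT1L KO (interaction -1.24, SE 0.099, edgeR adjusted p 2.10e-09). Control HEL had 2.37-fold more SPI1 than control K562 (edgeR adjusted p 8.52e-13).

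Myeloid marker genes were measured beside SPI1, since it is a myeloid factor. Of 15 markers, 5 had enough counts to be tested in K562, and 4 of these rose in the DOT1L KO and 4 fell in the ENL KO. Their summed level over all 15 was 55.4 to 58.2 CPM in the K562 control, 349 to 380 CPM in the DOT1L KO and 21.5 to 22.9 CPM in the ENL KO, and 121 to 128 CPM in the HEL control and 160 to 167 CPM in the KD. LYZ, which encodes lysozyme, made up most of the sum in the DOT1L KO, with 291 to 322 CPM against 32.6 and 35.4 CPM in the controls (log2 fold change 3.19, edgeR adjusted p 6.70e-12). CSF3R, the receptor of granulocyte colony-stimulating factor, had 23 counts in each control, 209 to 276 counts in the DOT1L KO and 0 to 2 counts in the ENL KO (fitted log2 fold changes 3.17 and -4.20, the second against counts under the floor of 3, edgeR adjusted p 2.00e-08 and 2.33e-05). CD33, a surface marker of myeloid cells, fell in the ENL KO from 16.9 and 17.2 CPM to between 1.22 and 1.74 CPM (edgeR adjusted p 4.43e-10). In HEL 4 of the 15 markers were tested, and 2 rose in the KD while 2 were not past the threshold. ITGAM and CD33 rose by 1.07 and 0.56 on the log2 scale (edgeR adjusted p 8.16e-07 and 5.40e-14). LYZ overlapped, with 44.1 and 50.5 CPM in the HEL controls and 46.6 and 49.3 CPM in the KD. The granule genes that define neutrophil precursors were low: in K562, MPO had 10 and 11 counts in the controls and 1 to 4 counts in the knockout libraries, and ELANE had 0 or 1 count in every library of both lines. The part of these markers in the changes of SPI1, CEBPA and GFI1 was not tested. In these bulk samples, more cells of a type and more RNA per cell cannot be told apart.

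ETV6 (chromosome 12, 11649854 to 11895391, plus strand) was lower after loss of DOT1L in K562. It had 30.9 and 31.3 CPM in the controls, 19.3, 20.2 and 19.9 CPM in the DOT1L KO and 33.4, 37.5 and 35.3 CPM in the ENL KO. The DOT1L KO libraries were below all others, a 1.57-fold decrease (log2 fold change -0.65, SE 0.079, edgeR adjusted p 1.28e-05). In the ENL KO each library was above both controls, but the log2 fold change of 0.19 (SE 0.078) was not past the threshold (edgeR adjusted p 0.0705, and 0.0421 without ENL KO 1). HEL had 105 and 107 CPM in the controls and 101 and 97.1 CPM in the KD, a log2 fold change of -0.10 (SE 0.046) that was not past the threshold (edgeR adjusted p 0.0628). The changes on DOT1L depletion differed between the lines (interaction 0.57, SE 0.090, edgeR adjusted p 2.95e-05). ETV6 was 3.58-fold higher in control HEL than in control K562 (edgeR adjusted p 1.09e-16).

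ETS1 (chromosome 11, 128458761 to 128587558, minus strand) and FLI1 (chromosome 11, 128686535 to 128813267, plus strand) were among the strongest of the regulators in HEL and near or at 0 in K562. FLI1 had 0 counts in all 8 K562 libraries, which allows up to 0.101 to 0.195 CPM, and 577 and 572 CPM in the HEL controls. Against the floor of 3 counts in a K562 control library, FLI1 was at least 4053-fold higher in the HEL control. ETS1 had 3 counts in each K562 control and 9376 and 9554 counts in the HEL controls. The ratio was 5355 after scaling to library totals with TMM factors within each cell line, as for the other exact ratios here (95% exact interval 2460 to 14590, counting error only). In the HEL KD, FLI1 had 496 and 525 CPM and ETS1 had 620.2 and 620.6 CPM, against 748 and 758 CPM of ETS1 in the controls. Both fell, ETS1 by 0.28 on the log2 scale (SE 0.028, edgeR adjusted p 2.94e-12) and FLI1 by 0.17 (SE 0.030, edgeR adjusted p 3.41e-06). With upper-quartile scaling FLI1 fell by 0.0975, still past the threshold (edgeR adjusted p 0.00686). In the K562 DOT1L KO, ETS1 had 10, 28 and 13 counts (0.454 to 0.946 CPM) against 3 and 3 in the controls, a ratio of 4.98 (95% exact interval 2.14 to 14.2). This increase was past the threshold (edgeR adjusted p 0.00342), and the level reached was below 1 CPM. ETS1 had enough counts to be tested in K562 only through the DOT1L KO, where it was high. Its tests against the control and against the ENL KO are therefore not support for a difference. Without DOT1L KO 2 or without DOT1L KO 3, ETS1 had too few counts to be tested in K562. The ENL KO had 2, 3 and 1 counts of ETS1, so both it and the control were at or under 3 counts and no fold is given. ETS1 was 6.61 times as high in the DOT1L KO as in the ENL KO (95% exact interval 2.84 to 18.9, edgeR adjusted p 5.97e-04). FLI1 shares 167 exonic bases, 3.82% of its exons, with the antisense gene LOC101929538. Whether the counting used strand is not stated, so reads there cannot be assigned with certainty.

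ERG (chromosome 21, 38367261 to 38661780, minus strand), a close relative of FLI1, was at the limit of detection. It had 0 or 1 count in each K562 library, 11 and 10 counts in the HEL controls, and 11 and 5 counts in the KD. The HEL groups overlapped (log2 fold change -0.37, SE 0.48), and the change was not past the threshold (edgeR adjusted p 0.532). Control HEL and control K562 had 21 counts and 1 count in all, a ratio of 35.6 after scaling (95% exact interval 5.73 to 1474).

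**Figure D2:**
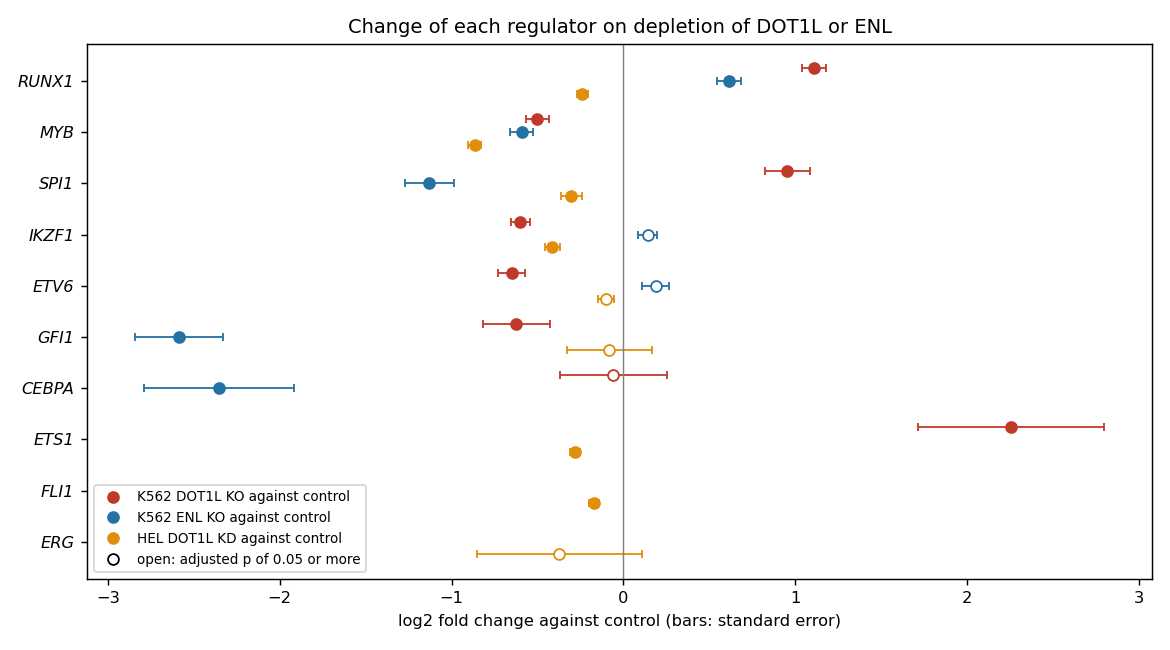
Log2 fold change against the control of the same cell line (points, bars show the standard error) for each regulator and depletion. Filled points are past an adjusted p of 0.05, a gene without a point was not tested or had both groups at or under 3 counts, and only MYB has 3 filled points on the same side of 0, at -0.50, -0.59 and -0.87.

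The place of these factors within the ETS family was read from levels per kilobase of exon, since only these can be compared between genes. Over the 28 ETS family genes, the summed level in control K562 was led by ELK1 (16.3%), ELF4 (15.6%) and ERF (14.7%). SPI1 held 6.77% and rank 6 there, ETV6 2.03% and rank 12, and ETS1 0.00973%. In control HEL, ETS1 (20.4%) and FLI1 (20.0%) led the family, SPI1 held 5.98% and rank 5, and ETV6 2.71% and rank 7. The share of SPI1 was 12.02% (rank 4) in the DOT1L KO and 3.15% (rank 10) in the ENL KO. In the HEL KD, FLI1 held 21.4% and ETS1 20.2%. These shares are descriptions of group means and were not tested.

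**Figure D3:**
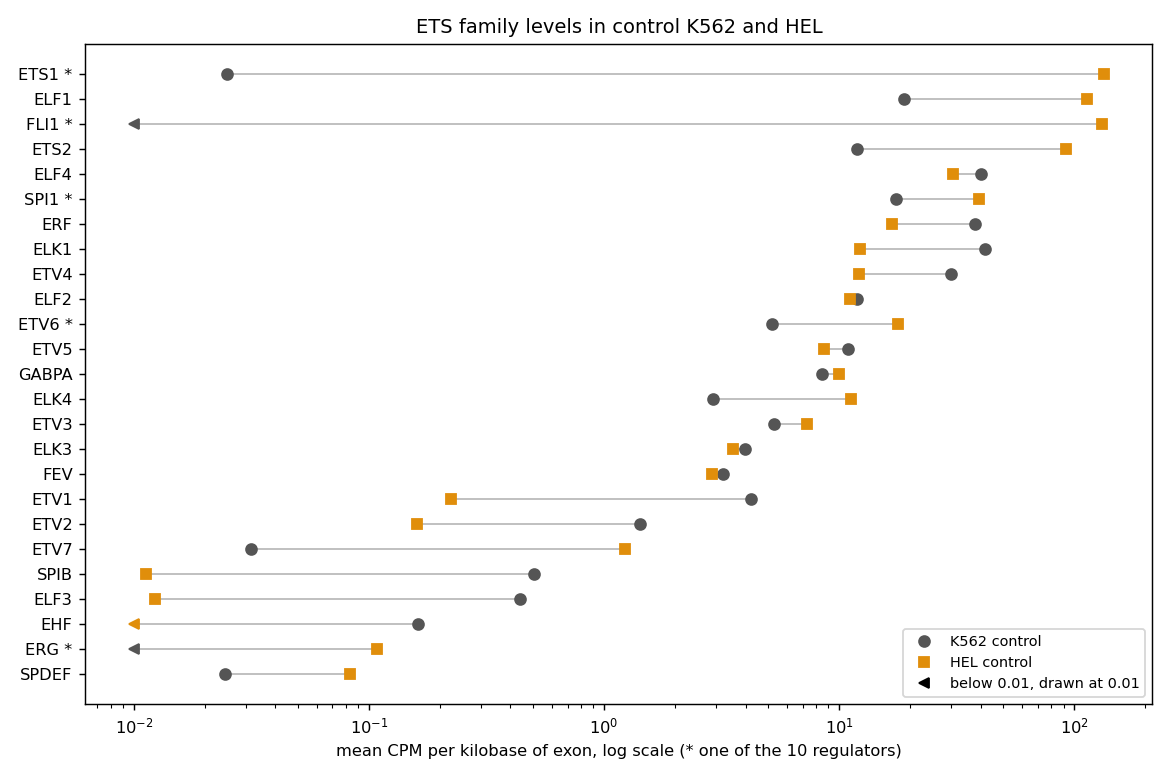
Mean level per kilobase of exon (CPM per kilobase, log axis) of ETS family genes in control K562 (circles) and control HEL (squares), with the 5 ETS regulators starred and values below 0.01 drawn at 0.01. ETS1 and FLI1 stand at 134 and 131 CPM per kilobase in HEL against 0.0250 and 0 in K562, while SPI1 stands at 17.4 in K562 and 39.2 in HEL.

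Of the 23 other ETS family genes, 19 had enough counts to be tested in K562. In the DOT1L KO 4 rose, 7 fell and 8 were not past the threshold (median log2 fold change -0.10), and in the ENL KO 3 rose, 9 fell and 7 were not (median 0.02). SPDEF, counted among the 4 that rose, had 1 count in each control and 9 to 11 counts in the DOT1L KO. It had enough counts to be tested in K562 only through the DOT1L KO, so that call is not support for an increase. In the HEL KD, 5 of 15 tested rose, 5 fell and 5 were not past the threshold (median -0.04). The shares of all tested genes past it were 51.1%, 41.0% and 55.0% in these comparisons. FEV, a relative of FLI1 and ERG known from serotonergic neurons, rose from 6.04 and 6.05 CPM in the K562 controls to between 38.2 and 39.1 CPM in the DOT1L KO (log2 fold change 2.68, SE 0.12, edgeR adjusted p 8.46e-10). In the ENL KO it had 3 to 13 counts and fell by 3.60 on the log2 scale (SE 0.22, edgeR adjusted p 2.52e-08). ELK3, a repressor of the ternary complex group, fell in both K562 knockouts, by 1.15 and 1.30 on the log2 scale (edgeR adjusted p 2.24e-06 and 1.49e-06), and rose by 1.25 in the HEL KD (SE 0.091, edgeR adjusted p 3.58e-17). The ELK3 changes on DOT1L depletion are thus of opposite sign in the lines, with an interaction of 2.41 (SE 0.16, edgeR adjusted p 9.20e-11). ETS2, the closest relative of ETS1, fell from 375 to 217 CPM in the HEL KD (log2 fold change -0.79, SE 0.033, edgeR adjusted p 5.68e-27). It also fell in the DOT1L KO and the ENL KO, by 0.52 and 0.36 on the log2 scale (edgeR adjusted p 2.37e-05 and 9.07e-04). Others named by the same rule were ETV3 (0.52) and ETV2 (-1.12) in the DOT1L KO, SPIB (1.73) and ELK1 (0.36) in the ENL KO, and ETV1 (0.87) and ELK4 (-0.54) in the HEL KD, all log2 fold changes past the threshold in edgeR's test.

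IKZF1 (chromosome 7, 50304083 to 50405100, plus strand) fell on DOT1L depletion in both lines. It had 176 and 189 CPM in the K562 controls, 120, 125 and 116 CPM in the DOT1L KO and 195, 204 and 204 CPM in the ENL KO. The DOT1L KO libraries were the lowest, a 1.52-fold decrease (log2 fold change -0.60, SE 0.057, edgeR adjusted p 1.19e-06). The ENL KO libraries were above both controls with a log2 fold change of 0.14 (SE 0.057) that was not past the threshold (edgeR adjusted p 0.0631). The knockouts differed by 0.74 on the log2 scale, with the lower level in the DOT1L KO (SE 0.051, edgeR adjusted p 3.02e-08). In HEL, IKZF1 had 124 and 131 CPM in the controls and 93.7 and 98.3 CPM in the KD, a decrease of 0.41 on the log2 scale (SE 0.046, edgeR adjusted p 5.04e-11). The interaction of 0.20 (SE 0.081, 2 SE interval 0.04 to 0.37) was not past the threshold (edgeR adjusted p 0.0515), and it was past it without K562 control 1 (0.0224), without DOT1L KO 1 (0.0345) and with upper-quartile scaling (0.0382). Control HEL had 1.36-fold less IKZF1 than control K562 (edgeR adjusted p 5.19e-07).

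CEBPA (chromosome 19, 33299934 to 33302564, minus strand, a gene of 1 exon) was near the floor in all groups and lowest in K562 after loss of ENL. It had 1.12 and 1.09 CPM in the K562 controls, 1.18, 1.08 and 0.899 CPM in the DOT1L KO and 0.193, 0.341 and 0.0651 CPM in the ENL KO. The ENL KO libraries, with 12 counts in all against 47 in the controls, were below all others, a ratio of 5.20 (95% exact interval 2.72 to 10.8) with a fitted log2 fold change of -2.35 (SE 0.44) at an edgeR adjusted p of 7.16e-04. The DOT1L KO overlapped with the control (log2 fold change -0.06, 2 SE interval -0.68 to 0.56, edgeR adjusted p 0.891) and was above the ENL KO by 2.29 on the log2 scale (SE 0.40, edgeR adjusted p 2.31e-04). HEL libraries had 3, 3, 1 and 4 counts, too few for a test of the KD. CEBPA was 4.62 times as high in control K562 as in control HEL after scaling (95% exact interval 1.97 to 13.2).

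GFI1 (chromosome 1, 92473043 to 92486925, minus strand) was lower in both K562 knockouts. It had 4.46 and 4.07 CPM in the controls, 2.77, 2.94 and 2.55 CPM in the DOT1L KO and 1.01, 0.438 and 0.651 CPM in the ENL KO. The 3 groups did not overlap. GFI1 fell 6.00-fold in the ENL KO (log2 fold change -2.59, SE 0.25, edgeR adjusted p 2.73e-06), on 40 counts against 182 in the controls. The decrease in the DOT1L KO was smaller (log2 fold change -0.62, SE 0.20, edgeR adjusted p 0.0168) and was not past the threshold without control 1 (adjusted p 0.110), without DOT1L KO 3 (0.0510) or with DESeq2 (0.0503). The difference between the knockouts was 1.96 on the log2 scale (SE 0.25, edgeR adjusted p 1.31e-05). In HEL, with 2.63 and 3.49 CPM in the controls and 3.02 and 2.76 CPM in the KD, the groups overlapped (log2 fold change -0.08, 2 SE interval -0.58 to 0.41, edgeR adjusted p 0.801). Between the control lines, GFI1 differed by -0.41 on the log2 scale, HEL minus K562, which was not past the threshold (SE 0.21, edgeR adjusted p 0.0780).

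The paralogs of these regulators (11 genes of the IKZF, CEBP, MYBL and GFI1 families) were examined beside them. In the DOT1L KO, 3 of 10 tested rose and 2 fell, in the ENL KO 2 rose and 5 fell, and in the HEL KD 1 of 9 tested rose and 2 fell (3 past the threshold in edgeR's test, and 1 with DESeq2). GFI1B, the erythroid and megakaryocytic paralog of GFI1, rose in the ENL KO, where GFI1 fell, from 107 and 108 CPM to between 216 and 226 CPM (log2 fold change 1.04, SE 0.054, edgeR adjusted p 6.01e-09). GFI1B also rose 1.40-fold in the DOT1L KO (edgeR adjusted p 5.40e-06), where GFI1 was lower too. IKZF3 (Aiolos), a lymphoid relative of IKZF1, rose 2.22-fold in the DOT1L KO, where IKZF1 fell, and was 11.7-fold lower in the ENL KO (edgeR adjusted p 1.09e-06 and 1.50e-09). IKZF2 (Helios) rose in the DOT1L KO to between 2.82 and 3.60 CPM from 6 and 9 counts in the controls (log2 fold change 3.18, edgeR adjusted p 3.72e-06). IKZF2 had enough counts to be tested in K562 only through the DOT1L KO, where it was high, so that test is not support for the increase. CEBPD, a stress-responsive relative of CEBPA, fell 2.66-fold in the DOT1L KO and 1.71-fold in the ENL KO (edgeR adjusted p 4.13e-07 and 1.45e-04). CEBPB, a factor of emergency granulopoiesis, fell 1.85-fold in the ENL KO (edgeR adjusted p 5.32e-05). The 9 genes of the GFI1 co-repressor list (KDM1A, the RCOR genes, histone deacetylases and NuRD subunits) were all tested. In each K562 knockout 3 were past the threshold, 2 higher and 1 lower. In the HEL KD 4 were past the threshold, 1 higher and 3 lower. Of all tested genes, 51.1%, 41.0% and 55.0% were past it in the same comparisons. RCOR1, which links KDM1A to nucleosomes, fell in each depletion, by 0.36, 0.21 and 0.56 on the log2 scale (edgeR adjusted p 1.20e-04, 0.00769 and 6.22e-17). RCOR3 rose in the DOT1L KO (0.47) and the ENL KO (0.27) and fell in the HEL KD (-0.14). The other increases were RCOR2 (0.44) in the DOT1L KO, HDAC2 (0.20) in the ENL KO and HDAC1 (0.32) in the HEL KD. All are log2 fold changes past the threshold in edgeR's test. The 3 calls of this list in the ENL KO were 0 without control 2. RCOR1 shares its control libraries between the K562 comparisons, as does every other gene here.

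**Figure D4:**
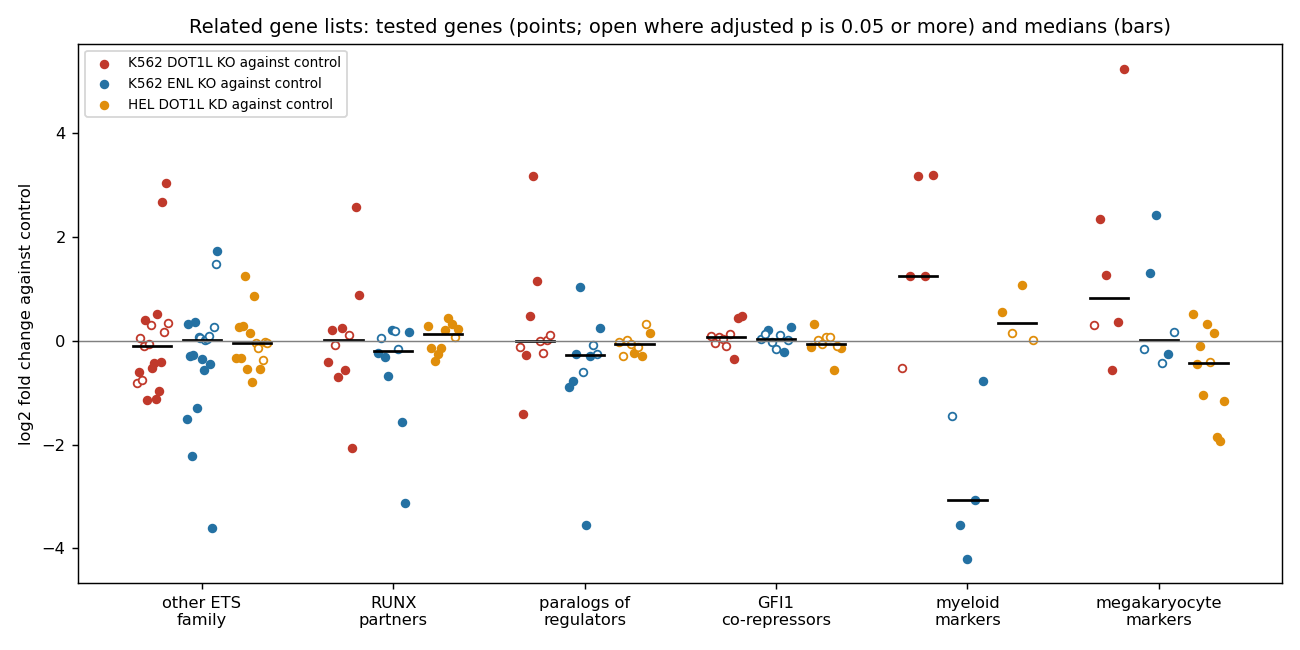
Log2 fold change of the tested genes of 6 related lists in the 3 depletions (points, open where the adjusted p is 0.05 or more), with the median of the tested genes (bars). The 5 tested myeloid markers have medians of 1.26 after loss of DOT1L and -3.08 after loss of ENL, and the other ETS family genes have medians of -0.10, 0.02 and -0.04.

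Over the 10 regulators, 8 had enough counts to be tested in K562 (not FLI1 and ERG) and 9 in HEL (not CEBPA). Loss of DOT1L in K562 came with 3 that rose and 4 that fell, beside 51.1% of all 14301 tested genes past the threshold (26.9% higher, 24.2% lower). Loss of ENL came with 1 that rose and 4 that fell, beside 41.0% of all genes (18.8% higher, 22.2% lower). Between the knockouts, loss of DOT1L gave the higher level in 5 and loss of ENL in 2, beside 60.2% of all genes (31.8% higher, 28.3% lower). ETS1, counted as higher in both comparisons of the DOT1L KO, had enough counts to be tested there only through the DOT1L KO. In the HEL KD none of the 9 rose and 6 fell, beside 55.0% of 12635 tested genes (27.0% higher, 28.0% lower). With DESeq2, 4561 genes were past the threshold there in place of 6951. The 3 others were ERG, ETV6 and GFI1 with log2 fold changes of -0.37, -0.10 and -0.08, so that none was higher at an unadjusted p under 0.05 in edgeR's test, or with DESeq2, in which all 9 values were also below 0. The median log2 fold change of the tested regulators was -0.28 in the DOT1L KO, -0.49 in the ENL KO and -0.28 in the HEL KD, and that of all tested genes was 0.011, 0.0028 and 0.013. These counts over 8 and 9 genes are a description and are not read as particular to the regulators. Between the control lines, 6 of 10 were higher in HEL and 3 lower, beside 85.6% of 15367 genes past the threshold (41.3% higher, 44.2% lower). FLI1 and ERG had enough counts to be tested there only through HEL, and CEBPA only through K562, where each was high. Their calls in this count are therefore not support for a difference. ETS1, also counted as higher in HEL, had 3 counts in each K562 control. The change on DOT1L depletion differed between the lines in 5 regulators (4 lower in HEL, which were RUNX1, MYB, SPI1 and ETS1, and ETV6 higher), beside 38.9% of all genes (19.8% higher, 19.1% lower). That of ETS1 (interaction -2.52, SE 0.44, edgeR adjusted p 8.54e-05) rests on 3 counts in each K562 control. FLI1 and ERG were at or under 3 counts in K562, and no difference between the lines in their change could be read.

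The order of the regulators by level per kilobase of exon changed with the line and the depletion. In control K562 it ran from MYB (83.9 CPM per kilobase) through IKZF1 (21.9), SPI1 (17.4), RUNX1 (10.5), ETV6 (5.20), GFI1 (0.877) and CEBPA (0.419) to ETS1 (0.0250), with ERG and FLI1 overlapping at or near 0. In the DOT1L KO the order was MYB (59.3), SPI1 (33.7), RUNX1 (22.6) and IKZF1 (14.5), none of which overlapped with its neighbour, so that SPI1 and RUNX1 stood above IKZF1. With loss of ENL it was MYB (55.7), IKZF1 (24.2) and RUNX1 (16.0), followed by SPI1 (7.84) and ETV6 (5.92), whose libraries overlapped. GFI1, CEBPA and ETS1 also overlapped with their neighbours there. Control HEL ran from ETS1 (134) and FLI1 (131) through MYB (62.0), RUNX1 (50.6), SPI1 (39.2), ETV6 (17.7) and IKZF1 (15.4) to GFI1 (0.630), ERG (0.109) and CEBPA (0.0907), with no overlap between neighbours at 2 libraries a group. In the KD, FLI1 (117) stood above ETS1 (110), and RUNX1 (42.9) above MYB (34.0).

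Likeness of pattern was measured over all 12 distinct libraries as Pearson's r of log2 CPM centred within each cell line, among 8984 genes of at least 5 CPM in each line. The libraries share their controls and treatment groups, so r describes how genes follow the groups. The genes most like RUNX1 were DDX60L (0.981), UROS (0.978), an enzyme of haem synthesis, and ACSM3 (0.977). Those most like MYB were SAMSN1 (0.988), SQLE (0.978), an enzyme of cholesterol synthesis, and SPG21 (0.975). No list is given for FLI1, which was not tested in K562.

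Markers of other lineages moved in the same comparisons as the regulators. All 10 erythroid markers were past the threshold in the DOT1L KO, 9 of them higher, and 8 were in the ENL KO (7 higher) and 8 in the HEL KD (all higher). SLC4A1, counted as higher in the HEL KD, had enough counts to pass the threshold for testing in HEL only through the KD. The shares of all tested genes past it were 51.1%, 41.0% and 55.0%. TFRC was the marker that fell in both knockouts, by 0.27 and 0.26 on the log2 scale (edgeR adjusted p 0.00165 and 0.00299). The summed level of the erythroid markers was 6752 to 7197 CPM in the DOT1L KO, 5707 to 5836 CPM in the ENL KO and 7325 to 8018 CPM in the HEL KD, against the control ranges above. ALAS2, which starts haem synthesis in red cells, rose 6.38-fold in the DOT1L KO and 2.84-fold in the ENL KO, and GYPB, a red cell surface protein, rose 3.05-fold in the HEL KD (edgeR adjusted p 8.98e-12, 5.76e-10 and 1.25e-31). The GYPB value is uncertain as far as its reads are shared with near-identical paralogs. Of 13 megakaryocyte markers, many of them targets of RUNX1 and FLI1, 6 were tested in K562, and 4 rose and 1 fell in the DOT1L KO while 2 rose and 1 fell in the ENL KO. In HEL 10 were tested, and 3 rose and 6 fell in the KD, with a summed level of 3171 to 3201 CPM in the control and 2590 to 2605 CPM in the KD. The platelet chemokines PPBP and PF4 fell there by 1.94 and 1.85 on the log2 scale (edgeR adjusted p 1.28e-13 and 9.20e-17). THBS1, found in platelet granules, rose in the DOT1L KO from 6 and 12 counts to between 309 and 479 counts (log2 fold change 5.25, SE 0.22, edgeR adjusted p 4.75e-10). ITGA2B, a platelet integrin, rose in both K562 knockouts by 2.35 and 1.31 on the log2 scale (edgeR adjusted p 6.09e-08 and 4.61e-05). The part of these lineage markers in the changes of RUNX1, MYB and the ETS factors was not tested.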

How the data were processed

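Of the 74 samples of the series, the 13 RNA-seq samples (12 distinct libraries) were used, and the other 61 were not analysed here. The authors deposited whole-number counts per gene, as reads for HEL and fragments for K562, per the file headers. Polyadenylated RNA was made into strand-specific libraries, per the labels' protocols. The submitters' processing notes list fastp 0.13.1, Bowtie2 2.3.4.1, HISAT2 2.1.0, deepTools and featureCounts 1.6.1, without saying which made these tables. Coordinates are as the tables list them: 26353 symbols (93.7%) matched RefSeq, and the positions are those of GRCh38.

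In R 4.3.3, counts were filtered by edgeR 4.0.16 with filterByExpr (at least 10 counts, 15 in total), scaled with TMM and compared with the quasi-likelihood test, adjusted by Benjamini-Hochberg over all genes tested (threshold 0.05). All K562 groups shared a fit, HEL had its own, and a joint fit of K562 control, K562 DOT1L KO and both HEL groups gave the differences between lines. Intervals for genes with few counts are exact (SciPy 1.17.1, 95%). The design had assumed 3 control libraries of K562, and 2 were used because columns 2 and 3 were identical. The test was checked on simulated data. DESeq2 1.42.0, other scalings, no filter, the compared groups alone, a replicate block and leaving out each library were tried as alternatives.

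The 10 regulators and all lists were chosen with earlier results of these data known. Of each list, up to 2 largest increases and 2 largest decreases per comparison with a control were eligible to be named, if past the threshold, with a mean of at least 1 CPM and non-overlapping groups. Some list genes are counted in their lists but not reported singly here. For some named genes, values of comparisons outside this rule are also given. DOT1L and MLLT1 were given as a check of the labels. Genes named outside this rule (MPO, ELANE and those at a few counts) serve as marker checks. The lymphoid list had 3 tested genes in K562 (0 higher and 2 lower in the DOT1L KO, 1 higher and 1 lower in the ENL KO), with 1 past the threshold in the DOT1L KO with DESeq2, with the replicate block and without control 1, control 2 or DOT1L KO 3, and 1 in the ENL KO without control 1 or control 2. It had 4 in HEL, with 0 past the threshold in edgeR's test, 0 at an unadjusted p under 0.05 and 0 with DESeq2.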

Additional observations from a re-analysis of the deposited data

Results flagged for a closer look

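The change on DOT1L depletion differed between K562 (knockout) and HEL (knockdown) in 5 of the 10 regulators, by the interaction term of edgeR's quasi-likelihood test in the joint fit of both tables, beside 38.9% of all 15367 genes tested. This count is not read as particular to the regulators. Values are the log2 change in HEL minus that in K562. RUNX1 had -1.33 (edgeR adjusted p 1.73e-11), with an increase in 3 of 3 K562 libraries and a decrease in 2 of 2 HEL libraries. SPI1 had -1.24 (edgeR adjusted p 2.10e-09), with the same directions in the same numbers of libraries. MYB had -0.35 (edgeR adjusted p 0.00190) and fell in both lines. ETV6 had 0.57 (edgeR adjusted p 2.95e-05), with a decrease in K562 and a change in HEL that was not past the threshold. ETS1 had -2.52 (edgeR adjusted p 8.54e-05), with 3 counts in each K562 control. Line, depletion method, medium and counting unit cannot be told apart in these values. Groups of 2 and 3 libraries are too small for a check of single libraries that stand apart.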

How the results depend on the processing

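The numbers of regulators past the threshold stayed within 1.5 times the reported counts in all 79 counts recomputed under the alternatives. Leaving out each library in turn gave 5 to 7 of them in the DOT1L KO (ETS1 was not tested without DOT1L KO 2 or 3, and GFI1 was not past the threshold without control 1 or DOT1L KO 3), 5 to 6 in the ENL KO, 6 to 7 between the knockouts, 6 in every such fit of the HEL KD, 9 to 10 between the control lines and 5 to 6 for the interaction. For the log2 fold changes of single regulators, DOT1L and MLLT1, 790 recomputed values kept direction and side of the threshold, 10 passed it newly, 3 (GFI1 in the DOT1L KO) lost it and 5 reversed, all in values that were not past it. The reversed ones were, over the fits that leave out a library, CEBPA in the DOT1L KO (-0.136 to 0.0343, and 0.0795 with the replicate block), ERG in the HEL KD (-1.02 to 0.0629), GFI1 in the HEL KD (-0.274 to 0.133) and the CEBPA interaction (-1.44 to 0.516). These genes had few counts. With DESeq2, 4561 genes were past the threshold in the HEL KD against 6951 with edgeR, and the cause was not tested. Of the counts over lists, 598 stayed within 1.5 times and 34 did not. Same-numbered replicates had correlated deviations of 0.0452 to 0.186 in K562, where differently numbered ones had -0.127 to 0.0671. In HEL the values were 0.000904 and -0.000904, which are tied to the same size in groups of 2 libraries. Pairs with a K562 control, which had 2 distinct libraries, are tied in the same way (0.124 and -0.124 with DOT1L KO 1). The control kept as number 2 was identical to number 3, so its number is uncertain. Between the knockouts, same-numbered pairs had 0.0452 to 0.186 and differently numbered ones -0.127 to 0.0566, so the ranges overlapped. Same-numbered K562 replicates thus deviated together weakly at most, and the cause was not tested. With the replicate block the ENL KO values of IKZF1 (0.15) and ETV6 (0.19), the difference of MYB between the knockouts (0.09) and the interaction of IKZF1 (0.18) were past the threshold (edgeR adjusted p 0.0101, 0.0426, 0.0365 and 0.0196), and the co-repressor list had 6 genes past it in place of 3 in each K562 knockout.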

Other observations

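ETS1 and FLI1 lie next to each other on chromosome 11, with 99.0 kb between their start sites, and this neighbourhood was looked at after the values were seen. In K562, FLI1 had 0 counts and ETS1 at most 0.946 CPM in any library, and the genes between them and around FLI1 were as low: the antisense genes LOC101929538 and SENCR had 0 counts in the K562 controls. In control HEL, SENCR had 8.09 and 10.8 CPM and LOC101929538 at most 0.317 CPM, beside 575 CPM of FLI1 and 753 CPM of ETS1 as means. KCNJ1 and KCNJ5, on the far side of FLI1, had at most 0.160 CPM in control HEL.

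Some genes of the lists had the K562 pattern of SPI1, higher in the DOT1L KO and lower in the ENL KO, and were picked after the values were seen. Both comparisons share the same control libraries. The log2 fold changes in the DOT1L KO and the ENL KO were 0.95 and -1.13 for SPI1, 2.68 and -3.60 for FEV, 2.58 and -3.13 for RUNX3, 1.15 and -3.55 for IKZF3, 3.17 and -4.20 for CSF3R, 1.25 and -3.55 for CD33, and 1.26 and -3.08 for ITGAM. Each of these was past the threshold in edgeR's test. In the HEL KD, SPI1 and IKZF3 fell by 0.30 and 0.24, CD33 and ITGAM rose by 0.56 and 1.07, and FEV, RUNX3 and CSF3R had -0.02, 0.06 and 0.14, not past the threshold.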
